A study of Homo sapiens with 18 samples.

Results

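The enzymes that remove methyl groups from H3K4, the lysine of histone H3 whose methylation marks promoters and enhancers, were followed through RNA sequencing of lung adenocarcinoma cells with changed levels of RAD21. The 6 genes KDM1A, KDM1B, KDM5A, KDM5B, KDM5C and RIOX1 were chosen by name from the 58735 genes counted, and all 6 had enough reads to be tested in both experiments. RAD21 is the kleisin that closes the cohesin ring. A549 and H358 are established human lung adenocarcinoma lines. Both received lentiviral vectors carrying a short hairpin RNA against RAD21 (shRAD21), and their controls carried an empty vector (shNC). A549 cells that overexpressed RAD21 (RAD21OE) were set beside A549 cells with their own empty vector (EV). The labels call all 3 control groups wild type, and every group, controls included, carried a vector. Each of the 6 groups had 3 libraries, 18 in all. The labels give the knockdown and the overexpression as separate batches, of April and July, so levels were compared within each experiment only.

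These methyl groups are removed by distinct chemistries. KDM1A (LSD1) and KDM1B (LSD2) are flavin-dependent amine oxidases that act on the mono- and dimethylated lysine. KDM1A works inside the CoREST complex with histone deacetylases, and KDM1B is known to act within the bodies of transcribed genes. The KDM5 proteins are Jumonji (JmjC) oxygenases that use iron and alpha-ketoglutarate and remove the tri- and dimethyl marks. KDM5A and KDM5B are partners of SIN3 and NuRD repressor complexes, and KDM5C is encoded on the X chromosome. RIOX1 (NO66) is a nucleolar JmjC protein that hydroxylates a ribosomal protein and has been described as an H3K4 and H3K36 demethylase.

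The counting annotation (hg38) places KDM1A (ENSG00000004487) at chr1:23019443-23083689 and KDM1B (ENSG00000165097) at chr6:18155329-18223853, both on the plus strand. KDM5A (ENSG00000073614, chr12:280129-389454), KDM5B (ENSG00000117139, chr1:202724495-202809470) and KDM5C (ENSG00000126012, chrX:53191321-53225422) lie on the minus strand. RIOX1 (ENSG00000170468, chr14:73490964-73493392, plus strand) is a single block of exon of 2429 bases. Of the exon bases of RIOX1, 3.46% overlap HEATR4 on the other strand, and of those of KDM5A, 1.51% overlap CCDC77. The sources used here do not give strandedness, so reads from those stretches cannot be assigned to a strand. KDM5C has a closely similar paralogue on the Y chromosome, and how reads that fit both were counted is not stated.

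The sequences just upstream of the 3 members that changed after knockdown in A549 are shown because these genes share a function and not a direction of change. They come from RefSeq promoters (GRCh38.p14), which held 5 of the 6 members, without RIOX1, and each was ended where the counting annotation starts the gene. Capitals mark matches, on either strand, to the ETS core CCGGAA or the GC box GGGCGG.
KDM5C, 35 bases, chrX:53225423-53225457, minus strand: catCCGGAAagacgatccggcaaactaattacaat
KDM1B, 157 bases, chr6:18155172-18155328, plus strand: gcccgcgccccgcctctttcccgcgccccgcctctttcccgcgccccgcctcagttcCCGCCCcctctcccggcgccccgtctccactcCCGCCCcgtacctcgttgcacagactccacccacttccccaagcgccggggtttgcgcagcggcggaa
KDM1A, 225 bases, chr1:23019218-23019442, plus strand: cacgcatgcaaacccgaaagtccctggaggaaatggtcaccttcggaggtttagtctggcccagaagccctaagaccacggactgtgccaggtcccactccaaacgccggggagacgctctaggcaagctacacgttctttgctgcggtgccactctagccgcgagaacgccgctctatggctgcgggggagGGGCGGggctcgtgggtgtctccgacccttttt
In the full window of 250 bases before the RefSeq start, KDM5C held 1 ETS core and no GC box, whereas KDM1B held 3 GC boxes, KDM1A held 1, KDM5A held 1 and KDM5B held 3. Bases before the gene by the counting annotation numbered 225 for KDM1A, 157 for KDM1B, 116 for KDM5A, 35 for KDM5C and 0 for KDM5B. The rest of each window lay within the annotated gene. Over 35116 RefSeq promoters, 14.5% held the ETS core and 42.6% the GC box in that window. Neither AAGATGGC, a YY1 motif (1.36% of promoters), nor AGNNGGCGC, part of the CTCF motif (8.61%), was found in the windows of these 5 genes. A match is a run of letters and not a binding site.

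The knockdown libraries held 15155077 to 19277568 counts and the overexpression libraries 13024640 to 14276335. A member had between 235 and 3824 counts in a library, which gives a counting error of 6.52% to 1.62%. RAD21 itself had 257, 253 and 255 CPM (counts scaled to a common library size) in A549 shNC and 129, 132 and 101 in A549 shRAD21 (log2 fold change -1.08). In H358 it had 569, 589 and 603 CPM in shNC and 379, 427 and 433 in shRAD21 (-0.51), and in the overexpression 195, 209 and 194 CPM in EV and 1520, 1502 and 1306 in RAD21OE (2.85). All 6 epithelial marker genes reached 1 CPM in every group, but their levels differed between the lines. EPCAM, CDH1 and KRT19 were lower in A549 shNC than in H358 shNC (3.65, 66.7 and 8.79 against 540, 500 and 1499 CPM). KRT7, KRT8 and KRT18 were higher (2545, 4680 and 2574 against 1034, 1588 and 555 CPM). The lung factor NKX2-1 was lower in A549 shNC (0.0643 against 122 CPM). The lung markers NAPSA, SFTPA1, SFTPB and SFTPC had at most 1.63 CPM in both of these groups. Libraries also differed along the GC content of genes, and replicate 3 of A549 shRAD21 and replicate 3 of RAD21OE stood apart on it: the rank correlation across genes between GC content and a library's deviation was -0.467, -0.441 and 0.362 in A549 shRAD21 and -0.202, 0.043 and 0.628 in RAD21OE. Whether replicates are separate cultures is not in the labels, and a p-value therefore covers only the spread among these libraries, possibly a technical one. In bulk RNA a lower level per cell and fewer cells with the transcript cannot be told apart.

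**Figure D1:**
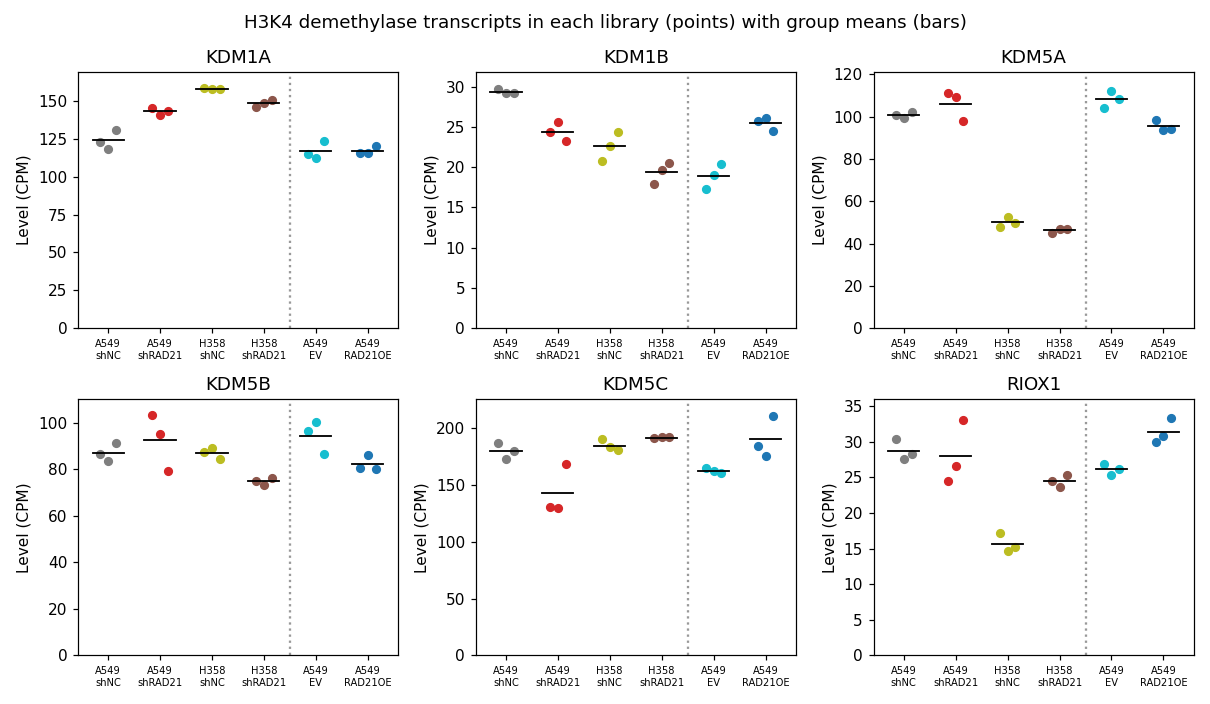
Level in CPM (vertical axis, starting at 0) of each gene in each of the 18 libraries (points), by group, with the mean of 3 libraries as a bar; a dotted line separates the 2 experiments, which were scaled apart. KDM5C is lowest in replicates 1 and 2 of A549 shRAD21 (131 and 130 CPM), and RIOX1 is lowest in the 3 libraries of H358 shNC (14.6 to 17.2 CPM).

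Levels of different genes were compared per kilobase of merged exons. In A549 shNC the order was KDM1A (22.8 ± 1.12 CPM per kilobase, SD, n = 3), KDM5C (20.6 ± 0.802), RIOX1 (11.8 ± 0.602), KDM5A (8.34 ± 0.131), KDM1B (5.25 ± 0.0509) and KDM5B (3.37 ± 0.148), and no range of libraries overlapped that of the next gene. The order was the same in A549 shRAD21 and in both groups of H358, except that the ranges of KDM5A (4.15 ± 0.205) and KDM1B (4.04 ± 0.316) overlapped in H358 shNC. In EV the ranges of KDM5B (3.65 ± 0.274) and KDM1B (3.38 ± 0.273) overlapped, and in RAD21OE those of KDM5C (21.8 ± 2.11) and KDM1A (21.5 ± 0.479). The amine oxidase of CoREST and the X-linked KDM5 gene thus had the highest levels per length in all 6 groups. The exon length of KDM5B, 25882 bases when all annotated transcripts are merged, against 5440 for KDM1A and 12091 for KDM5A, lowers its level on this scale.

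**Figure D2:**
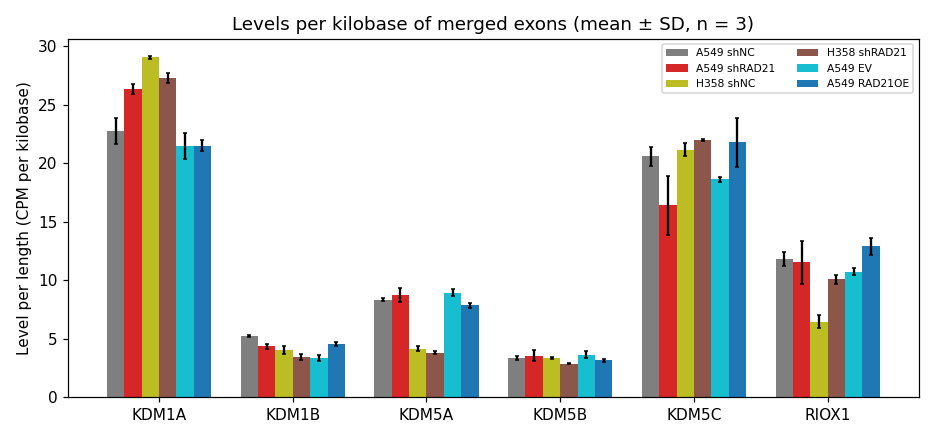
Level per length (CPM per kilobase of merged exons, vertical axis from 0) of the 6 genes in the 6 groups; bars are means and error bars SD over 3 libraries. KDM1A and KDM5C are the 2 highest in every group, and RIOX1 is 6.45 in H358 shNC against 11.8 in A549 shNC.

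Knockdown of RAD21 in A549 asked whether less cohesin goes with a change in these enzymes. KDM5C and KDM1B fell and KDM1A rose, and KDM5A, KDM5B and RIOX1 did not pass the test. Of all 18939 genes tested, 25.2% were called in this comparison (14.4% higher and 10.9% lower), so 3 of 6 called is to be read against about 1 in 4 genes. The ranges of the groups lay apart for the same 3 members, as they did for 32.7% of all genes. The median log2 fold change was 0.02 over the 6 members and 0.00 over all genes.

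KDM5C had 187, 173 and 180 CPM in the shNC libraries of A549 and 131, 130 and 169 in the shRAD21 libraries. Replicates 1 and 2 of the knockdown were well below the controls, and replicate 3 lay just under the lowest control. The log2 fold change was -0.33 (SE 0.08, edgeR adjusted p = 0.00662), a level 20.4% lower. KDM5C has a GC content of 56.8%, above that of 75.7% of tested genes, and its level moved with the GC trend of the libraries. In the 2 shRAD21 libraries with trends of -0.467 and -0.441 it deviated by -0.29 and -0.30 (log2) from the mean of the line, in the third, with 0.362, by 0.08, and in the shNC libraries, with 0.204 to 0.295, by 0.11 to 0.23. With offsets for the trends of each library on GC content and exon length the fold change was -0.26 (adjusted p = 0.00012), and without shRAD21 replicate 3 it was -0.46 (adjusted p = 1.07e-10). KDM5C was called in 21 of 21 alternatives.

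Of the amine oxidases, KDM1A had 123, 119 and 131 CPM in A549 shNC and 145, 141 and 144 in shRAD21. Every knockdown library lay above every control, and the log2 fold change was 0.21 (SE 0.06, edgeR adjusted p = 0.0155). KDM1B had 29.7, 29.2 and 29.2 CPM in shNC and 24.3, 25.6 and 23.2 in shRAD21. Here every knockdown library lay below every control, and the log2 fold change was -0.27 (SE 0.09, edgeR adjusted p = 0.0392). Both calls are weaker than that of KDM5C. KDM1A was called in 16 of 21 alternatives (adjusted p up to 0.145), and not without shNC replicate 1, shNC replicate 2 or shRAD21 replicate 1. Its call was also lost with no filter and with only the 6 A549 libraries (edgeR adjusted p = 0.135). KDM1B was called in 13 of 21 (adjusted p up to 0.108), and not when any of the 3 shNC libraries, shRAD21 replicate 1 or shRAD21 replicate 2 was left out. Nor was KDM1B called with no filter, with the replicate block or with only the 6 A549 libraries (edgeR adjusted p = 0.0568). The alternatives that leave out an H358 library take none from this comparison, and both genes were called in all of those. With the GC and length offsets KDM1A was 0.13 (adjusted p = 0.0362) and KDM1B -0.42 (adjusted p = 0.000169), so that the first was smaller and the second larger than reported.

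The other JmjC genes did not pass the test in A549. KDM5A had 101, 99.2 and 102 CPM in shNC and 111, 109 and 98.1 in shRAD21 (log2 fold change 0.07, SE 0.07, edgeR adjusted p = 0.469). KDM5B had 86.7, 83.6 and 91.2 CPM in shNC and 103, 95.1 and 79.2 in shRAD21 (0.09, SE 0.08, edgeR adjusted p = 0.479). RIOX1 had 30.4, 27.6 and 28.3 CPM in shNC and 24.5, 26.6 and 33.1 in shRAD21 (-0.04, SE 0.11, edgeR adjusted p = 0.853). In all 3 genes replicate 3 of the knockdown lay on the other side of the controls from replicate 1. Without that library KDM5B was called, at 0.19 (adjusted p = 0.00582), the only 1 of 21 alternatives in which it was. With the GC and length offsets the fold changes changed sign, to -0.09 for KDM5A, -0.04 for KDM5B and 0.14 for RIOX1, and none of the 3 was called. KDM5A and KDM5B have a GC content of 44.8% and 45.0%, and RIOX1 of 58.6%.

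**Figure D3:**
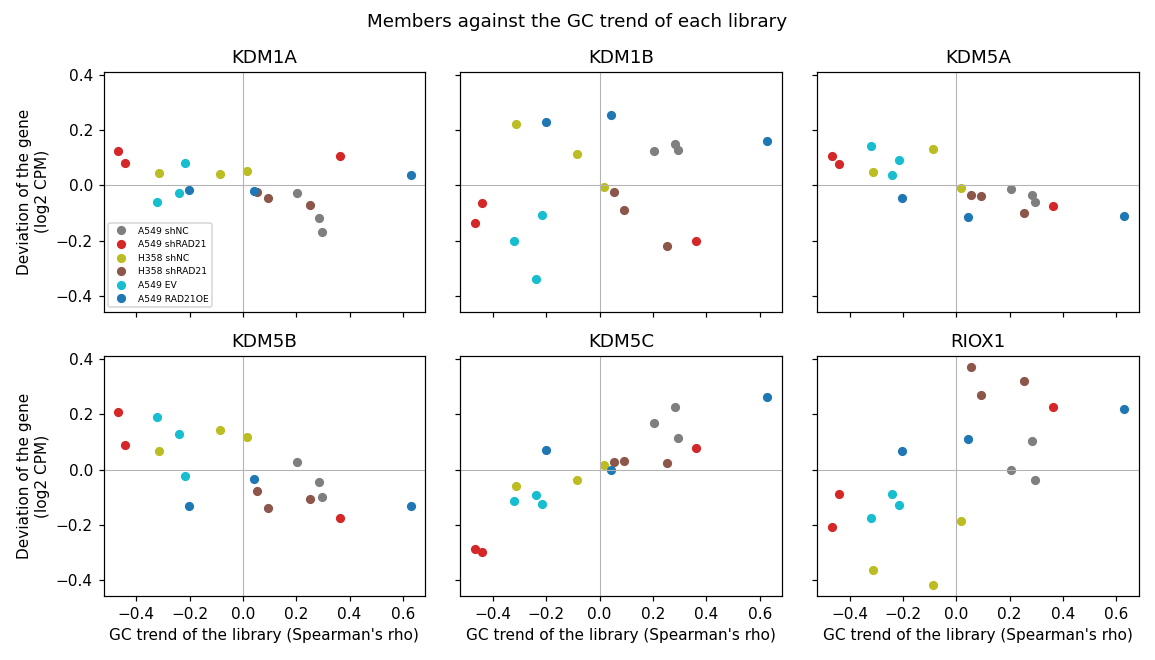
Deviation of each gene in each library from the mean of its line or experiment (vertical axis, log2 CPM) against the library's GC trend (horizontal axis, Spearman's rho, over genes, of the library's deviation with GC content), 18 libraries colored by group. KDM5C is lowest, at -0.29 and -0.30, in the 2 libraries with the most negative trend, and RIOX1 in H358 rises from shNC to shRAD21 with trends of -0.313 to 0.253.

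Knockdown in H358 gave 1 call among the members. RIOX1 had 17.2, 14.6 and 15.2 CPM in shNC and 24.5, 23.6 and 25.3 in shRAD21, so that the lowest knockdown library was well above the highest control. It rose 1.56-fold (log2 fold change 0.64, SE 0.11, edgeR adjusted p = 0.00129), the largest fold change of a member in any of the 3 comparisons of RAD21 levels. Of all genes tested, 8.4% were called here (3.78% higher and 4.62% lower). That share comes from the joint fit of both lines. With only the 6 H358 libraries, 2186 of 17215 genes were higher and 2287 lower. Without A549 shRAD21 replicate 3, 2145 of 19584 were higher and 2269 lower. RIOX1 was called in 21 of 21 alternatives, at 0.57 to 0.72 with an adjusted p of up to 0.0152. The GC trends were 0.016, -0.086 and -0.313 in shNC and 0.253, 0.093 and 0.054 in shRAD21. With the GC and length offsets the fold change of RIOX1 was 0.57 (adjusted p = 2.15e-05).

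The other 5 members did not pass the test in H358, although for all 6 the ranges of the groups lay apart, as they did for 36.1% of all genes. KDM5B had 87.5, 89.1 and 84.6 CPM in shNC and 75.0, 73.4 and 76.4 in shRAD21 (log2 fold change -0.22, SE 0.08, edgeR adjusted p = 0.122). Its libraries agree closely within each group. KDM5B was called in 3 of 21 alternatives: with only the 6 H358 libraries fitted (-0.22, adjusted p = 0.00152), without A549 shRAD21 replicate 3 (-0.22, adjusted p = 0.00106) and with the GC and length offsets (-0.16, adjusted p = 0.0427). All 3 settings also gave more calls over all genes. With the replicate block added to the offsets KDM5B was not called (edgeR adjusted p = 0.0517). KDM1B had 20.8, 22.6 and 24.4 CPM in shNC and 17.9, 19.6 and 20.5 in shRAD21 (-0.22, SE 0.09, edgeR adjusted p = 0.158).

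KDM1A had 159, 158 and 158 CPM in H358 shNC and 146, 149 and 151 in shRAD21 (-0.09, SE 0.06, edgeR adjusted p = 0.39). KDM5A had 47.9, 52.8 and 49.8 CPM in shNC and 45.0, 46.9 and 47.1 in shRAD21 (-0.12, SE 0.07, edgeR adjusted p = 0.369). KDM5C had 190, 183 and 181 CPM in shNC and 191, 192 and 192 in shRAD21 (0.05, SE 0.08, edgeR adjusted p = 0.759). Neither KDM1A nor KDM5C, both called in A549, passed the test in H358, and their values in H358 had the opposite sign. The median log2 fold change was -0.10 over the 6 members and 0 over all genes.

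Overexpression of RAD21 in A549 also gave 1 call. KDM1B had 17.3, 19.0 and 20.4 CPM in EV and 25.7, 26.2 and 24.5 in RAD21OE. All 3 overexpressing libraries lay above all 3 controls, and KDM1B rose 1.35-fold (log2 fold change 0.43, SE 0.11, edgeR adjusted p = 0.0135). Of the 15462 genes tested, 27.8% were called (14.1% higher and 13.7% lower). KDM1B was called in 11 of 14 alternatives. The call was lost without EV replicate 1 (adjusted p = 0.0831), EV replicate 2 (0.0544) or RAD21OE replicate 2 (0.05). With 235 to 364 counts in a library, KDM1B had the fewest reads of the members in this experiment.

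Among the KDM5 genes, KDM5C had 165, 163 and 161 CPM in EV and 184, 176 and 211 in RAD21OE (log2 fold change 0.22, SE 0.08, edgeR adjusted p = 0.0609). The highest value is that of replicate 3, the library with a GC trend of 0.628. KDM5C was called in 3 of 14 alternatives: with the GC and length offsets (0.17, adjusted p = 0.0171), with the replicate block added to them (0.17, adjusted p = 0.0132) and without RAD21OE replicate 3 (0.15, adjusted p = 0.0437). KDM5A had 104, 112 and 108 CPM in EV and 98.5, 93.8 and 94.0 in RAD21OE (-0.18, SE 0.08, edgeR adjusted p = 0.102). KDM5B had 96.2, 101 and 86.7 CPM in EV and 80.5, 86.1 and 80.3 in RAD21OE (-0.20, SE 0.09, edgeR adjusted p = 0.104). Both genes were called without RAD21OE replicate 3, at -0.17 (adjusted p = 0.0365) and -0.18 (adjusted p = 0.0445). That was the only 1 of 14 alternatives to call KDM5B, while KDM5A was called in 2 of 14. With the GC and length offsets they were nearer 0 and not called, at -0.07 (adjusted p = 0.34) for KDM5A and -0.08 (adjusted p = 0.304) for KDM5B. Over all genes the offsets gave 3903 higher and 2367 lower calls in this comparison, against 2177 and 2120 as reported.

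RIOX1 had 26.9, 25.3 and 26.2 CPM in EV and 30.0, 30.9 and 33.3 in RAD21OE (0.26, SE 0.10, edgeR adjusted p = 0.0723). It passed the test in 1 of 14 alternatives, with the GC and length offsets (0.21, adjusted p = 0.041). KDM1A had 115, 112 and 124 CPM in EV and 116, 116 and 120 in RAD21OE (0.00, SE 0.08, edgeR adjusted p = 0.989), the only member whose ranges overlapped. The ranges of the other 5 lay apart, against 45.4% of all genes. The median log2 fold change was 0.11 over the members and -0.01 over all genes. KDM1B was called in both A549 experiments, lower after knockdown and higher after overexpression. These calls held in 13 of 21 and 11 of 14 alternatives. Of all genes tested, 25.2% and 27.8% were called in the 2 experiments, and the share called in opposite directions was not counted. KDM5C had the same pair of signs, but only its fall after knockdown passed the test. Over all genes, fold changes followed GC content with rank correlations of -0.331 after knockdown and 0.310 after overexpression in A549. KDM5C, at 56.8%, lies above 75.7% of genes tested after knockdown in GC content. With the GC and length offsets its values were -0.26 and 0.17, and the part of the trend in its signs was not tested further.

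**Figure D4:**
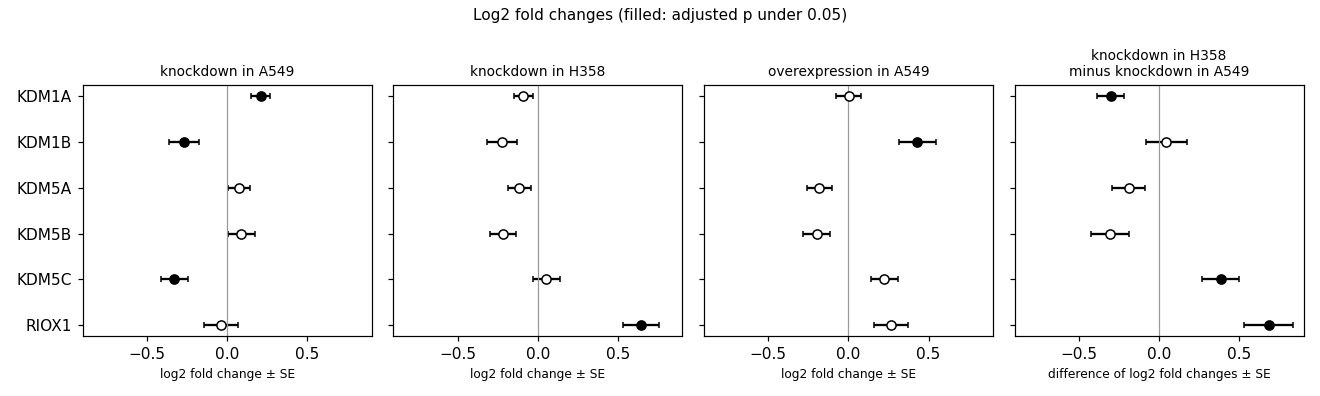
Log2 fold change of each gene (horizontal axis, points) with its SE (bars) after knockdown in each line and after overexpression in A549, and the difference between the 2 knockdowns; filled points have an adjusted p under 0.05. RIOX1 in H358 (0.64) is the farthest from 0 in the first 3 panels, and KDM1B has -0.27 and 0.43 in the 2 A549 experiments.

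The contrast of both knockdowns tested whether the response differed between the lines, and 17.6% of all genes were called in it. RIOX1 had the largest difference among the members, 0.68 higher in H358 than in A549 on the log2 scale (SE 0.16, edgeR adjusted p = 0.00554), and was called in 20 of 20 alternatives (0.42 with the GC and length offsets). KDM5C differed by 0.38 (SE 0.12, edgeR adjusted p = 0.0298) and KDM1A by -0.30 (SE 0.08, edgeR adjusted p = 0.02). Each of those was called in 11 of 20 alternatives, with an adjusted p of up to 0.0848 and 0.113. With 1 library left out, KDM5C was called in 3 of 12 fits and KDM1A in 4 of 12. With the GC and length offsets the difference of KDM1A was -0.22 (edgeR adjusted p = 0.0116). That of KDM5C was 0.29 to 0.41 over the settings that kept all libraries, the offsets among them. KDM5B (-0.30, adjusted p = 0.0833), KDM5A (-0.19, adjusted p = 0.209) and KDM1B (0.05, adjusted p = 0.876) did not pass the test by edgeR. RAD21 itself fell less in H358 than in A549 (difference 0.57), so the line and the depth of the knockdown cannot be told apart.

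Between the control groups, where 76% of all genes were called, H358 shNC was lower than A549 shNC in KDM5A (50.2 ± 2.48 against 101 ± 1.58 CPM, SD, n = 3, log2 difference -1.01), RIOX1 (15.7 ± 1.36 against 28.7 ± 1.46, -0.88) and KDM1B (22.6 ± 1.77 against 29.4 ± 0.285, -0.38), and higher in KDM1A (158 ± 0.64 against 124 ± 6.09, 0.35). The largest edgeR adjusted p of these 4 was 0.00103. KDM5B (-0.00) and KDM5C (0.04) did not pass the test. With the GC and length offsets KDM5C was called as well (0.24, adjusted p = 3.82e-05), KDM1A was 0.18 and KDM1B -0.67, while the median of all genes moved from 0.05 to -0.12. The H358 shNC libraries enter both this comparison and the knockdown in H358. After knockdown RIOX1 in H358, at 24.5 ± 0.857 CPM, was still below the range of A549 shNC.

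Across the 12 knockdown libraries, with the mean of each line subtracted, KDM5A and KDM5B varied most alike of the 15 pairs of members (Pearson's r = 0.88). RIOX1 went opposite to KDM5B (r = -0.83) and KDM5A (r = -0.80), and KDM5C opposite to KDM5A and KDM1A (both r = -0.69). These points share libraries, treatment and the GC trend, so the coefficients are a description only. Among 11600 protein-coding genes with a mean of at least 4 CPM, the most alike over these 12 libraries were SBF1 (r = 0.99) and MYEOV (0.98) for KDM5C, CALCOCO2 (0.97) and DYNC1I2 (0.96) for KDM5B, and WDR12 (0.97) and NUP160 (0.95) for KDM5A. They were DBNDD1 (0.97) and WDR62 (0.96) for RIOX1, PPM1L (0.96) and PHKA2 (0.96) for KDM1A, and ZYG11A and CYP1B1 (both 0.95) for KDM1B. The GC content of the genes most like KDM5C and RIOX1 was 56.8% to 64.4% and that of the genes most like KDM5A and KDM5B 40.8% to 45.5%, with a median over tested genes of 49.1%. For KDM1A it was 43.1% and 54.1%, and for KDM1B 46.7% and 49.7%.

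The lists that follow are read against 25.2% of all genes called after knockdown in A549, 8.4% in H358 and 27.8% after overexpression. These shares hold for the reported fit only. Without A549 shRAD21 replicate 3, of 19584 genes 4537 were higher and 3893 lower in A549, and 2145 and 2269 in H358. After overexpression, 3903 of 15462 genes were higher and 2367 lower with the GC and length offsets. Without RAD21OE replicate 3 the numbers were 2848 and 2688 of 15909. A list of partners of KDM1A in CoREST complexes, with related scaffold and recruiting proteins, had 7 of 20 tested genes called after knockdown in A549, 2 higher and 5 lower. MIER1 (log2 fold change 0.42, SE 0.10) and RCOR3 (0.33, SE 0.11), scaffold proteins that bind histone deacetylases, rose. MIER1 is counted as a related scaffold and not as a CoREST subunit. HMG20B (-0.58, SE 0.09), a CoREST subunit, and SNAI1 (-0.79, SE 0.14), the repressor that recruits KDM1A to epithelial genes, fell. In H358 only GFI1 (-0.82, SE 0.24) was called. After overexpression 2 of 19 rose and 3 fell. PHF21B (1.03, SE 0.18) and RCOR1 (0.25, SE 0.08) rose, and HMG20B (-0.48, SE 0.10) and ZMYM2 (-0.43, SE 0.09) fell. HMG20B was thus lower in both A549 experiments. The median of the list was -0.02, -0.07 and -0.01 after the knockdowns in A549 and H358 and after overexpression, an order kept for the lists that follow. The calls of RCOR3, GFI1, RCOR1 and ZMYM2 were lost in some alternatives. Without A549 shRAD21 replicate 3 the counts were 6 risen and 7 fallen in A549 and 1 and 5 in H358, and with the GC and length offsets 6 rose and 1 fell after overexpression.

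Of 25 partners of the KDM5 proteins, from SIN3 and NuRD complexes and, as RBPJ, from outside them, 4 rose and 2 fell after knockdown in A549. MORF4L1 (0.30, SE 0.06), a chromodomain protein, and RBPJ (0.39, SE 0.09), the Notch pathway factor, rose. MTA2 (-0.48, SE 0.08), a NuRD subunit, and BRMS1 (-0.29, SE 0.10), a SIN3 subunit, fell. EMSY (-0.34, SE 0.09) was the only call in H358. After overexpression 5 rose, among them the NuRD subunit MTA1 (0.57, SE 0.10) and BRMS1 (0.43, SE 0.10), and 2 fell, GATAD1 (-0.47, SE 0.13) and RBBP4 (-0.26, SE 0.09). The medians of the list were 0.03, -0.01 and 0.06. BRMS1, EMSY, GATAD1 and RBBP4 lost their calls in some alternatives. Without A549 shRAD21 replicate 3 the counts were 8 risen and 9 fallen in A549 and 2 and 4 in H358.

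The opposing side was taken as 25 tested genes, H3K4 methyltransferases by name or family together with subunits they share. After knockdown in A549, the methyltransferase KMT2C (0.55, SE 0.08) and SMYD2 (0.31, SE 0.08) rose, and the complex subunit BOD1 (-0.57, SE 0.10) and the methyltransferase KMT2D (-0.25, SE 0.08) fell. In H358 KMT2E (-0.27, SE 0.08), listed by its family name and not for a measured activity, was the only call. After overexpression 8 rose, among them HCFC1 (0.53, SE 0.08) and KMT2B (0.50, SE 0.09), and PSIP1 (-0.52, SE 0.13) fell. The median of the list was 0.17 there, against -0.01 over all genes, and 0.01 and -0.03 after the knockdowns. SMYD2, KMT2D and KMT2E lost their calls in some alternatives. Without A549 shRAD21 replicate 3 the counts were 8 risen and 8 fallen in A549 and 2 and 5 in H358. After overexpression the number risen was 4 to 12 with 1 library left out (4 without EV replicate 1 or EV replicate 2, and 12 without RAD21OE replicate 3) and 14 with the GC and length offsets.

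Of 24 tested readers of the mark, 3 rose and 5 fell after knockdown in A549, 1 rose and 1 fell in H358, and 4 rose and 4 fell after overexpression. TRIM24 (0.66, SE 0.09), which binds unmethylated H3K4, and SPIN1 (0.37, SE 0.09), which binds the trimethylated form, rose in A549, whereas PHF23 (-0.45, SE 0.12) and PYGO2 (-0.34, SE 0.10) fell. UHRF1 (0.43, SE 0.10) rose and PHF20 (-0.29, SE 0.07) fell in H358. After overexpression DPF2 (0.40, SE 0.09) and BRPF1 (0.39, SE 0.09) rose, and ING4 (-0.77, SE 0.13) and SPIN1 (-0.48, SE 0.09) fell. The medians were 0.08, 0.09 and 0.05. SPIN1 after knockdown, PHF23, PYGO2, UHRF1 and PHF20 lost their calls in some alternatives. With A549 shRAD21 replicate 3 left out, 7 rose and 8 fell in A549 and 4 rose and 4 fell in H358, and with the GC and length offsets 8 rose and 3 fell after overexpression.

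Among 21 other lysine demethylases and JmjC proteins, HR, the JmjC corepressor of hair follicles, was called in all 3 comparisons. It rose from 6.29 ± 0.639 to 13.1 ± 1.2 CPM (SD, n = 3) after knockdown in H358 (log2 fold change 1.06, SE 0.12, edgeR adjusted p = 3.39e-05) and from 57.2 ± 5.4 to 86.9 ± 13.2 CPM after overexpression (0.60, SE 0.11, edgeR adjusted p = 0.00212). Its rise after knockdown in A549 (0.28, SE 0.09) held in 8 of 21 alternatives. KDM6B (-0.33, SE 0.09), an H3K27 demethylase, and KDM7A (-0.48, SE 0.16) fell in A549. After overexpression 5 rose, JMJD6 (0.58, SE 0.09) among them, and TYW5 (-0.59, SE 0.15) fell. The medians were -0.00, -0.07 and 0.10. KDM6B, KDM7A and TYW5 lost their calls in some alternatives. With A549 shRAD21 replicate 3 left out, 4 rose and 3 fell in A549 and 2 rose and 5 fell in H358, and with the offsets 8 rose and 1 fell after overexpression.

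**Figure D5:**
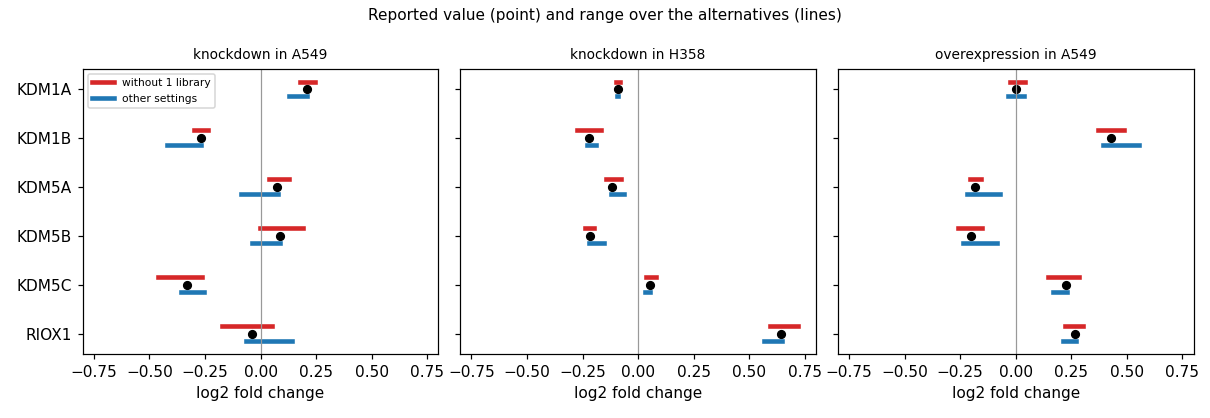
Reported log2 fold change of each gene (points, horizontal axis) in the 3 comparisons, with its range when 1 library was left out (red lines) and under the other settings (blue lines). KDM5C in A549 stays between -0.46 and -0.26 and RIOX1 in H358 between 0.57 and 0.72, while the ranges of KDM5A, KDM5B and RIOX1 in A549 and of KDM1A after overexpression cross 0.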

How the data were processed

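Gene expression was measured by RNA sequencing of 18 libraries. Per the labels' protocols, TRIzol RNA went into VAHTS Universal V6 libraries. Tools named in the submitters' processing notes, without their role, are HISAT2 2.0.5, featureCounts 1.5.0-p3 and fastp, with the build hg38. The deposited values are raw counts per gene in 2 tables, 12 knockdown libraries and 6 overexpression libraries, with the same 58735 genes, all equal to GENCODE release 29.

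Each table was fitted apart, with 1 mean per group, in R 4.3.3: filterByExpr, TMM scaling and edgeR 4.0.16's two-sided quasi-likelihood F-test. P-values were adjusted by Benjamini-Hochberg over all genes tested (18939 and 15462), and a gene rose or fell at an adjusted p under 0.05. An exact permutation test of 3 against 3 cannot give a p below 0.1. CPM are TMM-scaled. Alternatives were DESeq2 1.42.0 (size factors, Wald test), limma-voom 3.58.1, no filter, at least 10 CPM in 3 libraries, the replicate number as a block, offsets for GC content and exon length (splines with 5 degrees of freedom), only the 6 libraries of a line, and each library left out. The tests were tried on simulated counts. GC content was the mean over a gene's transcripts in GENCODE, weighted by length. Figures were drawn in Python 3.11.15 with matplotlib 3.10.9.

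The genes named are the 6 members and RAD21, up to 2 risen and 2 fallen genes of each of 5 lists by adjusted p, and the 2 genes most alike to each member by Pearson's r of log2 CPM (prior count 2). Members and lists were chosen with earlier results of these data known.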

Additional observations from a re-analysis of the deposited data

Results flagged for a closer look

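The response to knockdown differed between H358 and A549, by the contrast of both knockdowns in edgeR, for 3 of the 6 demethylase genes and for RAD21. Of all genes tested, 17.6% were called in that contrast. RIOX1 was called in 20 of 20 alternatives, but KDM5C and KDM1A in only 11 of 20 each. The differences in log2 fold change, H358 minus A549, were 0.68 for RIOX1 (0.64 and -0.04 in the lines), 0.38 for KDM5C (0.05 and -0.33), -0.30 for KDM1A (-0.09 and 0.21) and 0.57 for RAD21 (-0.51 and -1.08). The same contrast followed the GC content of genes with a rank correlation of 0.359, and the part of that trend in the differences was not tested beyond the fits with GC and length offsets. Single libraries were not tested for standing apart from their replicates.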

How the results depend on the processing

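The fall of KDM5C in A549, the rise of RIOX1 in H358 and its difference between the lines were called in every alternative run. The number of members called after knockdown in A549, 3 as reported, was 1 with no filter, 1 when the 6 A549 libraries were fitted alone, and 1 to 4 with 1 library left out. Over all genes, 2407 were higher and 2552 lower of 38700 in A549 with no filter. With the 6 A549 libraries alone these were 1649 and 1417 of 15939, against 2721 and 2059 of 18939 as reported. In H358 the number of members called, 1 as reported, was 2 with GC and length offsets, 2 with only the 6 libraries, and 1 to 2 with 1 library left out. After overexpression, 1 as reported, it was 2 with at least 10 CPM, 3 with the offsets, 2 with the replicate block and the offsets, and 0 to 4 with 1 library left out (0 without EV replicate 1, EV replicate 2 or RAD21OE replicate 2, and 4 without RAD21OE replicate 3). Over all genes, 1205 were higher and 1235 lower without EV replicate 1, and 1112 and 1065 without EV replicate 2. These were 1640 and 1432 without RAD21OE replicate 2, and 2848 and 2688 without RAD21OE replicate 3. For the difference between the lines, the number of members called, 3 as reported, was 1 to 5 with 1 library left out. It was 1 without A549 shNC replicate 1, H358 shNC replicates 2 or 3 or any H358 shRAD21 library, and 5 without A549 shRAD21 replicate 3. In the fits that gave 1, 932 to 1149 of all genes were higher and 1246 to 1354 lower, against 1442 and 1883 as reported. Without A549 shRAD21 replicate 3, 3507 were higher and 3841 lower of 19584. Signs turned only for values that were not called. With the offsets, and with the block added, KDM5A after knockdown in A549 was -0.0856 and -0.0856, KDM5B -0.0374 and -0.0388, RIOX1 0.1429 and 0.1432, and the line difference of KDM5A 0.0234 and 0.0238. KDM1A after overexpression was -0.0364 with at least 10 CPM. KDM5B between the controls was 0.0253 with DESeq2's size factors, 0.0254 with its Wald test, 0.0598 with at least 10 CPM and 0.0005 with limma-voom. With 1 library left out, the ranges were -0.0018 to 0.1886 for KDM5B and -0.1717 to 0.0498 for RIOX1 after knockdown in A549, -0.0245 to 0.0437 for KDM1A after overexpression, and -0.0334 to 0.0278 for KDM5B between the controls. The cause of these changes was not tested. Same-numbered libraries did not deviate together (correlations -0.121 to 0.0674). With the replicate block 2, 1, 1, 3 and 4 members were called in A549, H358, the overexpression, the line difference and the controls, and KDM1B in A549 had -0.27 (adjusted p = 0.0602). Levels scaled on library totals moved by up to 11.5%. Of 43 calls named from the lists, 22 held in every alternative and none reversed. Over all genes, 1588 were higher and 1786 lower in H358 with the offsets (716 and 875 as reported), 3903 and 2367 after overexpression (2177 and 2120), and 4537 and 3893 in A549 without shRAD21 replicate 3 (2721 and 2059). In H358, 2186 were higher and 2287 lower with only its 6 libraries, and 2145 and 2269 without A549 shRAD21 replicate 3. Between the controls the offsets moved the median of all genes from 0.05 to -0.12 (log2). KDM1B and RIOX1 had the fewest counts and the largest SEs of the members.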
